A study of Mus musculus with 6 samples.

Results

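Gna13, the gene deleted in these mice, and 9 further genes for alpha subunits of heterotrimeric G proteins were followed through the soleus arrays of Gna13 muscle knockout mice. The members are Gna13, Gna12, Gna11, Gnaq, Gna14, Gnas, Gnai1, Gnai2, Gnai3 and Gnao1, taken by symbol from the array's annotation wherever a probe set carried exactly 1 gene symbol. All 10 were found, with 110 probe sets among the 233753 probe sets of that kind, which belong to 23152 genes. The tested mice carried Ckmm-Cre, a Cre recombinase driven by the muscle creatine kinase promoter, together with Gna13 flox/flox alleles, and are called MKO here. Their controls, called WT as in the labels, carried the Gna13 flox/flox alleles without Cre, so the floxed alleles are shared by both groups. Each group had 3 male mice aged 18 weeks, fasted overnight for 14 h, with 1 array of total RNA from the soleus per mouse, labelled as biological replicates. The creatine kinase promoter is active in muscle fibres, whereas the arrays measured RNA of the whole muscle. How much Gna13 signal came from other cells was not tested.

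A G protein alpha subunit binds guanine nucleotide and, once a receptor has exchanged its GDP for GTP, leaves its beta and gamma partners to act on an effector. Gα13 and Gα12 form a class that acts through guanine nucleotide exchange factors on the actin cytoskeleton. Gαq, Gα11 and Gα14 activate phospholipase C beta and calcium release, Gαs stimulates adenylyl cyclase, and the Gαi proteins inhibit it. Gαo belongs to the same class as the Gαi proteins and is best known from neurons.

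The deposited values are log2 values after robust multi-array averaging (RMA), so a difference of 1 is a factor of 2. The median over all probe sets lay between 4.87 and 4.93 in the MKO arrays and between 4.92 and 4.95 in the WT arrays. MKO replicate 1 correlated least with the other arrays, with a Pearson r of 0.978 to 0.984 across genes, which are not independent replicates. All 10 markers of skeletal muscle fibres that were looked up were measured, the lowest being the slow troponin Tnni1 at a mean of 8.60, and their mean level was 10.6 to 10.7 in both groups. Of these 10, 6 had a negative difference, 1 of them at an unadjusted p under 0.05. Negative differences were also found in 5 of 8 smooth muscle and pericyte markers, 4 of 6 satellite cell markers and 3 of 6 adipocyte markers, none at an unadjusted p under 0.05. Over all genes, 53.4% had a negative difference. Probes differ in brightness for reasons of sequence, so levels were compared between groups within a probe set or gene and never between genes.

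Gna13 was examined first. Probe set 17257825 stood at 3.43, 4.25 and 4.33 in the 3 MKO arrays, against 5.48, 6.23 and 6.16 in the 3 WT arrays. Every MKO array lay more than 1 log2 unit below every WT array. The means were 4.0 ± 0.50 in MKO and 5.96 ± 0.41 in WT (SD, n = 3 each), a difference of −1.95 (95% interval −2.86 to −1.05) or a 3.87-fold lower value. By limma's fit over all 269751 rows it ranked 210th by p, and its adjusted p was 0.977. Of those rows, 0.00% passed at an adjusted p of 0.05, so the fit of single rows made no call for any gene. At an unadjusted p under 0.05, 2.20% of rows were higher in MKO and 2.80% were lower. In all, 432 rows, or 0.16%, had a difference at or below that of 17257825 with all MKO arrays under all WT arrays. In whole-muscle RNA, fewer cells of a type and less RNA per cell cannot be told apart.

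The other Gna13 probe sets did not share this difference. Probe set 17257829 stood at 8.75, 8.94 and 8.94 in MKO, against 8.19, 8.16 and 8.24 in WT, a difference of 0.67 (SE 0.13). Probe set 17257828 stood at 9.02, 9.25 and 8.99 in MKO, against 8.46, 8.64 and 8.63 in WT, a difference of 0.51 (SE 0.13). Probe set 17257824 stood at 7.43, 7.60 and 7.43 in MKO, against 6.98, 6.93 and 6.60 in WT, a difference of 0.65 (SE 0.19). In these 3 probe sets every MKO array lay above every WT array and the unadjusted p was under 0.05, but none passed when adjusted over all rows (adjusted p = 0.977 for each). By p in the same limma fit, 17257829 ranked 122nd, ahead of 17257825 at 210th. Probe sets 17257828 and 17257824 ranked 898th and 1962nd. Rows with all MKO arrays above all WT arrays made up 4.81% of the table, and rows with all of them below made up 5.05%. The remaining 3 overlapped between the groups. Probe set 17257823 stood at 5.40, 5.01 and 5.07 in MKO, against 5.15, 5.73 and 5.71 in WT, a difference of −0.37 (SE 0.32). Probe set 17257826 stood at 4.23, 4.17 and 5.35 in MKO, against 3.26, 4.61 and 4.25 in WT, a difference of 0.55 (SE 0.52). Probe set 17257827 stood at 8.14, 8.22 and 8.31 in MKO, against 8.20, 8.16 and 7.59 in WT, a difference of 0.23 (SE 0.19). The sources used here do not name the exon behind each probe set, and which of the 7 lie in the deleted part is not known here.

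**Figure D1:**
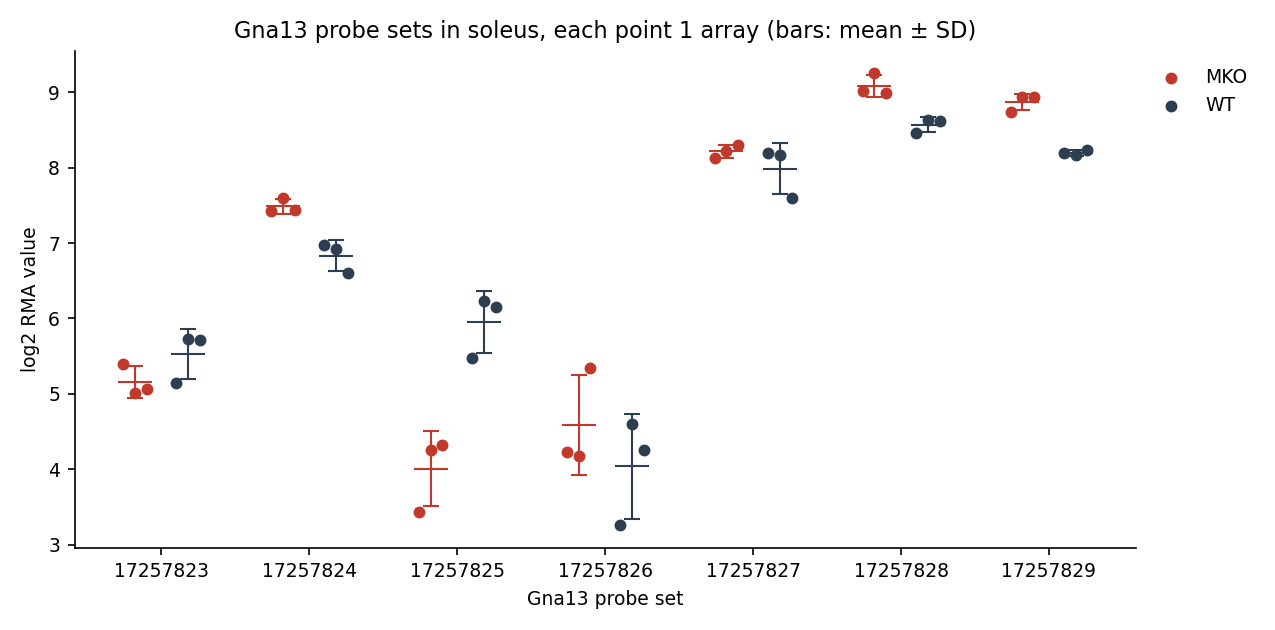
The 7 Gna13 probe sets (horizontal axis) with the log2 RMA value (vertical axis) of each MKO array (red, left) and each WT array (dark blue, right). Short lines are group means and bars are 1 SD of 3 arrays. Probe set 17257825 is the 1 in which all MKO arrays lie below all WT arrays, and in 17257824, 17257828 and 17257829 they all lie above.

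The gene's mean averages over these opposite signs. The mean over 7 probe sets was 6.63, 6.78 and 6.92 in MKO, against 6.53, 6.92 and 6.74 in WT. The groups overlapped, and the difference was 0.04 (95% interval −0.24 to 0.33, limma adjusted p = 0.9997 over all genes, exact two-sided permutation p = 0.8). Without 17257825, a trimming made after its values were seen and therefore given no test, the mean of the other 6 was 7.23 ± 0.10 in MKO and 6.86 ± 0.17 in WT (SD, n = 3 each), a difference of 0.38. The median of the 7 probe sets gave a difference of 0.65.

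Whether the probe sets of a gene differ from each other in their MKO minus WT difference was tested for every gene with limma's diffSplice. That method counts the rows of a gene as independent, although all were read from the same 6 arrays. How far this alters its p-values was not tested. Gna13 was 1 of 29 genes that passed among 20833 genes with at least 2 probe sets, a share of 0.139%, and it ranked 11th (F = 10.5, adjusted p = 0.00319). Among the 10 members it was the only gene to pass. The same method set each probe set against the rest of its gene. In that comparison 17257825 stood 2.33 log2 units further below the rest of Gna13 in MKO than in WT, a value of −2.33 with an adjusted p of 0.000132 over 231434 probe sets, of which 0.181% passed in either direction and 0.125% passed below the rest of their gene. The other 6 Gna13 probe sets did not pass, with adjusted p from 0.793 to 1.

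**Figure D2:**
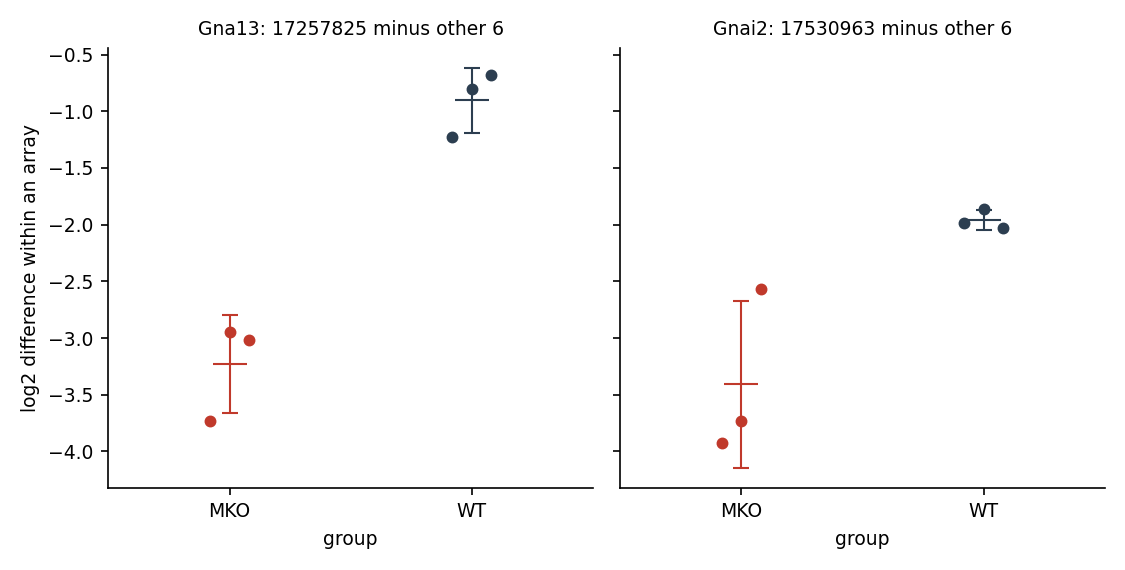
Within each array, the log2 value of 1 probe set minus the mean of the other 6 of the same gene (vertical axis), for MKO (red, left) and WT (dark blue, right). Points are arrays, short lines are means and bars are 1 SD of 3 arrays. For Gna13 17257825 the MKO arrays lie at −3.73, −2.94 and −3.02 and the WT arrays at −1.23, −0.80 and −0.68, and for Gnai2 17530963 the MKO arrays lie at −3.93, −3.73 and −2.57 and the WT arrays at −1.99, −1.86 and −2.03.

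Within single arrays, 17257825 minus the mean of the other 6 Gna13 probe sets was −3.73, −2.94 and −3.02 in MKO, against −1.23, −0.80 and −0.68 in WT. The groups lay apart, with means of −3.23 ± 0.43 in MKO and −0.90 ± 0.29 in WT (SD, n = 3 each). A shift common to all rows of an array cancels in these values, whereas a shift that depends on level does not. They restate the comparison of this row with the rest of its gene and are not separate support. Among the 1149 genes with 7 probe sets, the median gap between the highest and the lowest difference was 0.996, that of Gna13 was 2.63, and 12 genes, Gna13 included, had a gap at least that wide. The row kept its adjusted p under 0.05 against the rest of the gene in all 14 alternatives in which it was recomputed, each array left out in turn included, between 2.1e-05 and 0.00732. The lowest of these values came from the restriction to rows above the median level, whose limit is given below. Leaving out rows whose exact values recur in many other rows removed no Gna13 row, so the difference could not move there. The test over all 7 probe sets together was more sensitive to single arrays. Its adjusted p was 0.0544 without MKO replicate 2, 0.0951 without WT replicate 2 and 0.0904 without WT replicate 3. With weights by level, added because diffSplice gives every row of a gene the same spread, 10 genes in the table passed, and the adjusted p of Gna13 was 0.0114. Restricted to rows above the median level, which kept 6 of the 7 Gna13 probe sets, 1 gene in the whole table passed, and it was Gna13 (adjusted p = 0.000167). That filter used the mean over all 6 arrays and is not independent of the group difference. Row 17257825 was kept at a mean of 4.98, above the median of 4.84, with 5.96 in WT but 4.0 in MKO. This alternative is therefore no separate support.

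Gna12 encodes the closest relative of Gα13. Its mean over 8 probe sets was 6.85, 7.26 and 6.93 in MKO, against 7.04, 7.23 and 7.05 in WT. The arrays overlapped, and the difference was −0.09 (95% interval −0.37 to 0.18, limma adjusted p = 0.9997). The direction turned to 0.01 with array weights. Leaving out MKO replicate 1 gave −0.01, leaving out MKO replicate 2 gave −0.22, leaving out MKO replicate 3 gave −0.05 and leaving out WT replicate 2 gave −0.03. Quantile normalization and the median of probe sets each gave −0.06. All 8 probe sets had a negative difference, from −0.36 to −0.01, and in none did the groups lie apart. The 8 differences were close to each other, and the test for unequal differences gave an adjusted p of 1. A rise of this mean larger than 0.18 on the log2 scale lay outside the unadjusted interval. The interval does not bound a change in some of the probe sets. For the deleted gene Gna13, the same kind of mean differed by 0.04.

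Among the Gq class, Gna11, the alpha subunit of G11, had a mean over 8 probe sets of 8.08, 8.01 and 7.93 in MKO, against 8.03, 8.02 and 7.99 in WT. The difference of −0.01 (95% interval −0.20 to 0.19) was the narrowest interval of the 10 genes, and it changed sign under quantile normalization (0.04), median centring (0.02) and without probe sets whose exact values recur in many other rows (0.06). Gnaq, the alpha subunit of Gq with 8 probe sets, stood at 6.15, 6.42 and 6.65 in MKO, against 6.36, 6.80 and 6.43 in WT, a difference of −0.12 (95% interval −0.46 to 0.21). It was −0.25 without MKO replicate 3 and −0.21 without WT replicate 1, but 0.002 without MKO replicate 1 and 0.01 without WT replicate 2. Array weights gave −0.06, quantile normalization −0.08 and the omission of recurring values −0.07. The local pooled error (LPE) test, which takes the difference between group medians instead of group means, gave −0.01. Its probe set 17357968 stood at 5.57, 5.83 and 5.47 in MKO, against 6.004, 6.26 and 6.52 in WT, apart in all arrays, with a difference of −0.64 (SE 0.26, adjusted p = 0.977 in the row fit). Its highest difference was 0.15 in 17357962. Gna14, a relative of Gq with a narrower range of tissues, was the 1 member whose mean of 3.96 lay below the median gene at 4.41. It stood at 3.82, 3.65 and 3.92 in MKO, against 3.86, 4.55 and 3.95 in WT, a difference of −0.32 (95% interval −0.76 to 0.11) that was −0.11 without WT replicate 2, −0.13 by LPE, −0.14 with bright probe sets only and −0.51 by the median of probe sets. Its 7 probe sets ranged from −0.88 in 17357979 to 0.29 in 17357973, and none had the groups apart. In Gna11 they ranged from −0.44 in 17243394 to 0.15 in 17243395.

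**Figure D3:**
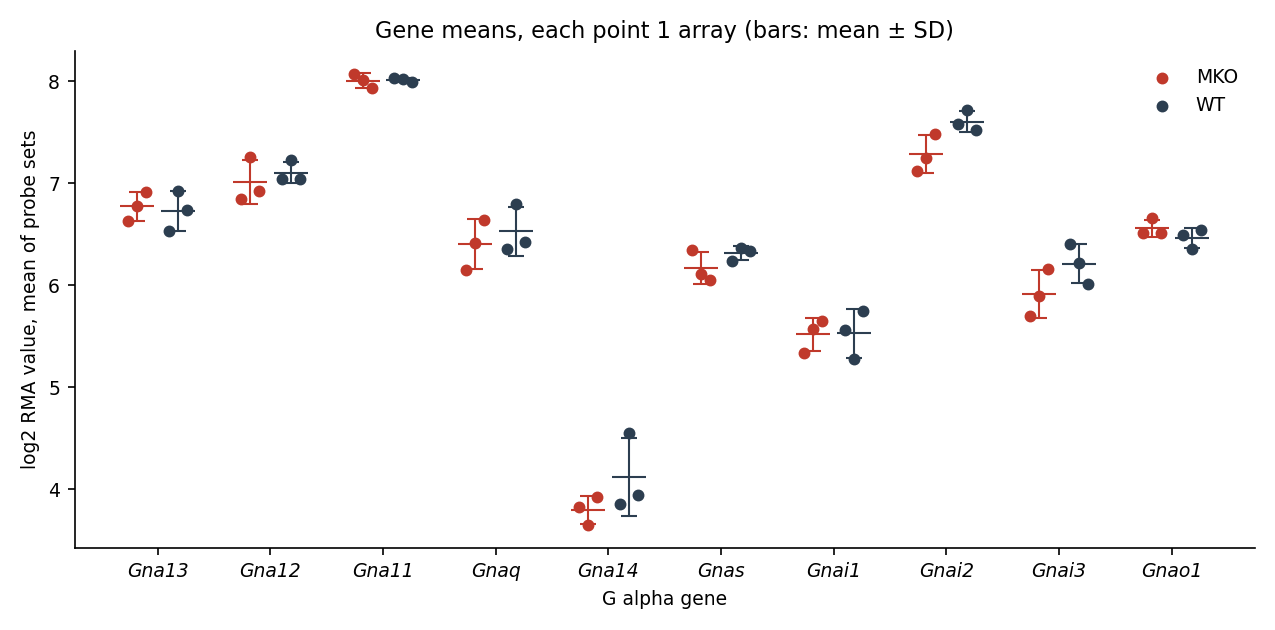
Mean log2 RMA value over the probe sets of each gene (vertical axis) for the 10 genes (horizontal axis), by array, with MKO in red on the left and WT in dark blue on the right. Short lines are means and bars are 1 SD of 3 arrays, and heights are not comparable between genes. Gnai2 is the gene in which the 3 MKO arrays, at 7.13 to 7.49, all lie below the 3 WT arrays, at 7.52 to 7.72.

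Gnas encodes Gαs and, from alternative promoters of an imprinted locus, further transcripts. It had the most probe sets of the 10 genes, 31, and its mean was 6.35, 6.11 and 6.06 in MKO, against 6.24, 6.37 and 6.34 in WT, a difference of −0.15 (95% interval −0.42 to 0.12). The median of the probe sets gave −0.03, LPE gave −0.23, and the difference was −0.23 without MKO replicate 1 and −0.09 without MKO replicate 3. Of the 31, 23 had a negative difference, 5 had all MKO arrays below all WT arrays and 3 had them all above. Over all rows, 51.3% had a negative difference, 5.05% had all MKO arrays below all WT arrays and 4.81% had them all above. Probe set 17380330 stood at 10.48, 10.42 and 10.57 in MKO, against 10.80, 10.80 and 10.63 in WT, a difference of −0.25 (SE 0.09) with the groups apart. Probe set 17380337 stood at 11.2, 11.3 and 11.4 in MKO, against 11.5 in each WT array, a difference of −0.21 (SE 0.08). The highest and the lowest difference of Gnas were in rows below the median row level of 4.84. Probe set 17380320 stood at 5.65, 5.20 and 4.71 in MKO, against 1.91, 4.35 and 4.06 in WT, a difference of 1.75 (SE 0.66). Probe set 17380317 differed by 1.42 (SE 0.43) and 17380319 by −1.32 (SE 0.52). None of these passed over all rows (adjusted p = 0.977), and the test for unequal differences gave an adjusted p of 0.515 for Gnas.

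The Gi class held the member gene with the smallest p. Gnai2, an inhibitory alpha subunit that many cell types carry, stood at 7.13, 7.24 and 7.49 in MKO, against 7.58, 7.72 and 7.52 in WT. All MKO arrays lay below all WT arrays, and the difference was −0.32 (95% interval −0.57 to −0.07, adjusted p = 0.9997, exact two-sided permutation p = 0.1, the smallest that 3 against 3 allows). Of all genes, 0.00% passed at an adjusted p of 0.05, 4.33% had an unadjusted p under 0.05 (2.41% lower and 1.92% higher in MKO) and 9.25% had the groups apart, while 4.99% had all MKO arrays below all WT arrays. Gnai2 was the 1 member of 10 in each of the last counts. Most of the Gnai2 difference came from probe set 17530963, at 3.76, 4.05 and 5.29 in MKO, against 5.88, 6.12 and 5.78 in WT, a difference of −1.56 (SE 0.44, adjusted p = 0.977). Without it, a trimming made after its values were seen, the mean was 7.77 ± 0.08 in MKO and 7.89 ± 0.09 in WT (SD, n = 3 each), a difference of −0.11, and the median of the 7 probe sets gave −0.14. Against the rest of its gene this probe set passed (−1.45, diffSplice adjusted p = 0.0187), but the adjusted p was 0.12 with the replicate block and 0.263 with weights by level. Without 1 array it lay between 0.0003 and 0.192, and the calls were lost without MKO replicate 2 or any of WT replicates 1, 2 and 3. Over all 7 probe sets Gnai2 did not pass (diffSplice adjusted p = 0.287), though it did without MKO replicate 3 (0.0094).

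Beside Gnai2, markers of endothelium, where this subunit is also present, were lower in MKO for 8 of 8 genes, with a mean level of 6.53 to 6.86 in MKO arrays and 6.72 to 7.10 in WT arrays, and 1 of the 8 had an unadjusted p under 0.05. Macrophage markers were lower for 7 of 8 genes, with a mean level of 4.87 to 5.007 in MKO arrays and 5.005 to 5.29 in WT arrays, and 1 of the 8 had an unadjusted p under 0.05. Fibroblast markers were lower for 7 of 8 genes, at 7.31 to 7.78 in MKO arrays and 7.62 to 7.87 in WT arrays, again with 1 at an unadjusted p under 0.05. In each of these lists the MKO and WT ranges overlapped. Over all genes, 53.4% had a negative difference, and 2.41% were lower in MKO at an unadjusted p under 0.05. The part of these cells in the Gnai2 value was not tested.

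Gnai3, a further inhibitory subunit with 9 probe sets, stood at 5.70, 5.89 and 6.16 in MKO, against 6.40, 6.22 and 6.01 in WT, a difference of −0.29 (95% interval −0.62 to 0.04) with overlap between the groups. It was −0.11 with bright probe sets only, −0.13 by the median of probe sets, −0.18 without recurring values and −0.18 without MKO replicate 1. Without MKO replicate 3 it was −0.42, and over all alternatives it lay between −0.42 and −0.11. Its lowest probe set, 17409220, differed by −1.18 (SE 0.62) and its highest, 17409222, by 0.07. Gnai1, the subunit of this class that is known from brain, stood at 5.34, 5.57 and 5.65 in MKO, against 5.56, 5.28 and 5.75 in WT, a difference of −0.01 (95% interval −0.35 to 0.33) whose sign turned in several alternatives. Its 8 probe sets ranged from −0.84 in 17445738 to 0.99 in 17445737. Probe set 17445737 stood at 4.06, 4.43 and 4.35 in MKO, against 3.07, 3.02 and 3.77 in WT, with the groups apart (SE 0.41, adjusted p = 0.977). Gnao1, for Gαo, stood at 6.51, 6.66 and 6.51 in MKO, against 6.49, 6.36 and 6.54 in WT, a difference of 0.09 (95% interval −0.16 to 0.35). It was 0.04 without WT replicate 2, 0.05 without MKO replicate 2, 0.02 by LPE and 0.06 without recurring values. Without WT replicate 3 it was 0.13, the highest of all alternatives. Over its 17 probe sets, differences ran from −0.33 in 17503886 to 0.88 in 17503894, and none had the groups apart. Of 10 Schwann cell and nerve markers, 7 were measured, and their mean level overlapped between MKO arrays (4.57 to 4.65) and WT arrays (4.47 to 4.63).

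**Figure D4:**
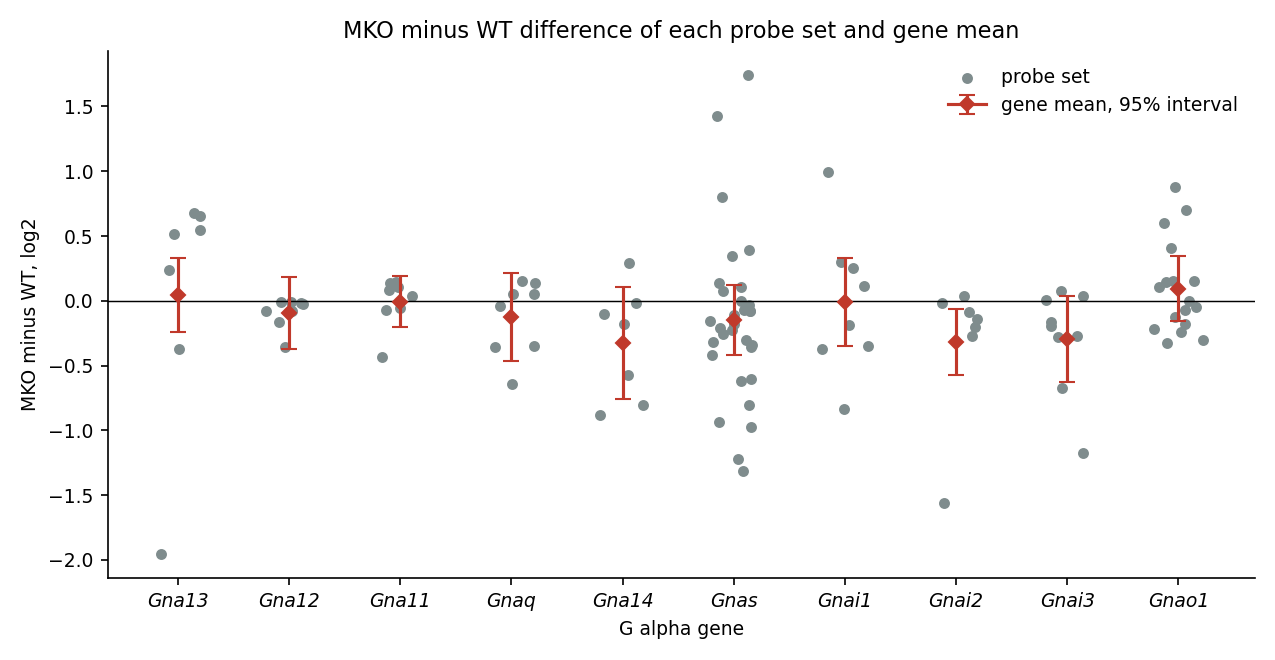
MKO minus WT difference on the log2 scale (vertical axis) for every probe set (grey points) and for the gene mean with its 95% interval from limma (red diamonds), for the 10 G alpha genes (horizontal axis, points spread sideways for display). The interval of Gnai2 lies below 0 before adjustment, and the lowest Gna13 point, at −1.95, is the lowest of all 110 probe sets.

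Over the family, 8 of 10 gene means had a negative difference and 2 a positive one, and 53.4% of all genes had a negative difference. Of the 110 probe sets, 71 had a negative and 39 a positive difference, where 51.3% of all rows were negative. An unadjusted p under 0.05 was reached by 12 of the 110, with 6 higher in MKO (5.45%, against 2.20% of all rows) and 6 lower (5.45%, against 2.80%). Of these 12, 4 belonged to Gna13, and without that gene 3 of 103 were higher (2.91%) and 5 were lower (4.85%). The groups lay apart in 15 of 110 probe sets, or 13.6%, against 9.86% of all rows, and in 11 of 103, or 10.7%, without Gna13. Probe sets of 1 gene share their RNA and are not replicates.

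Among the member rows with large differences, several carried values that recur exactly in many other rows of the same array. A row was counted as shared when at least 20 rows had its exact value on that array, on each of the 6 arrays. This held for 98669 rows, or 36.6% of the table, and for 28 of the 110 member rows, or 25.5%. The median size of the difference was 0.35 log2 units in the 28 shared member rows and 0.19 in the other 82, against 0.34 and 0.21 over all rows. None of the 7 Gna13 rows was shared on all arrays, and 17257825 had a shared value on 1 array. Gnai2 17530963, Gnas 17380317, 17380319 and 17380320, Gnai3 17409220, Gna14 17357979, Gna11 17243394, Gnai1 17445738 and Gnao1 17503894 were shared on all 6. Of the 420 rows that passed against the rest of their gene, 343, or 81.7%, were shared. With shared rows left out, an alternative chosen after seeing the data, 4 genes passed the test for unequal differences. Gna13 was among them (adjusted p = 0.012), and the row 17257825 passed against the rest of its gene (adjusted p = 0.000299). Gnai2 then had a gene difference of −0.11 and an adjusted p of 1 for unequal differences. The sources used here do not say how many probes make up a probe set, and the part of that number in the shared values was not tested.

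Genes that work with the alpha subunits were looked up from 8 lists with 74 entries, of which 73 were measured. None passed by limma over all genes, and at an unadjusted p under 0.05 there were 1 higher and 2 lower, beside 1.92% and 2.41% of all genes. Rock2 was not analysed here. The median difference over the lists was −0.02, beside −0.01 over all genes. Of 12 G gamma genes, 5 had a positive and 7 a negative difference, and Gng11 had the smallest p (−0.34, SE 0.15, adjusted p = 0.9997), with 5.63 ± 0.25 in MKO and 5.97 ± 0.12 in WT (SD, n = 3 each). The G gamma genes Gngt2 and Gng5 differed by 0.24 and −0.12. Of 5 G beta genes, 4 were negative, with Gnb5 at −0.27, Gnb1 at −0.04 and Gnb2 at 0.06, none at an unadjusted p under 0.05.

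Among the 7 measured effectors of the G12/13 class, Arhgef1, an exchange factor that Gα13 activates directly, stood at 5.70 ± 0.12 in MKO and 6.0 ± 0.13 in WT (SD, n = 3 each). Its arrays lay apart, as in 9.25% of all genes, and the difference was −0.29 (SE 0.13, adjusted p = 0.9997). The related exchange factor Arhgef12 differed by −0.10 (SE 0.10) and the cytoskeletal linker Rdx by 0.07 (SE 0.13). Of the 9 adenylyl cyclase genes, the effectors of Gs and Gi, 6 were positive, and Adcy8 had the smallest p (0.40, SE 0.18), at 3.99 ± 0.22 in MKO and 3.59 ± 0.19 in WT, below the median gene level. Adcy4 and Adcy7 differed by −0.12 and 0.11. Of the 7 effectors of Gq, 6 were negative, with Plcb2 at −0.22, Kalrn at −0.11 and Arhgef25 at −0.12, none at an unadjusted p under 0.05.

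Of the 21 genes for regulators of G protein signalling (RGS), which speed the hydrolysis of GTP by alpha subunits, 10 were positive and 11 negative, with a median of −0.003. Rgs13 differed by 0.37 (SE 0.17), Rgs20 by 0.30 (SE 0.18) and Rgs3 by −0.22 (SE 0.14), with the arrays apart in Rgs13 and Rgs3. Of the other RGS genes, Rgs18, named because its arrays also lay apart, differed by 0.17 (SE 0.16). The groups lay apart in 9.25% of all genes. Rgs13 and Rgs18, each at a mean of 2.43, were below the median gene level of 4.41. Of 6 chaperones and non-receptor activators of alpha subunits, 4 were positive. Ric8, now named Ric8a, which chaperones the Gαq, Gαi and Gα13 classes, differed by 0.14 (SE 0.18), Ric8b by 0.03 (SE 0.10) and Gpsm3 by −0.10 (SE 0.18). Of the 6 alpha subunit genes outside the 10 members, 4 were positive, and Gnat3, Gnaz and Gnal differed by 0.19, 0.20 and 0.21, none at an unadjusted p under 0.05.

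**Figure D5:**
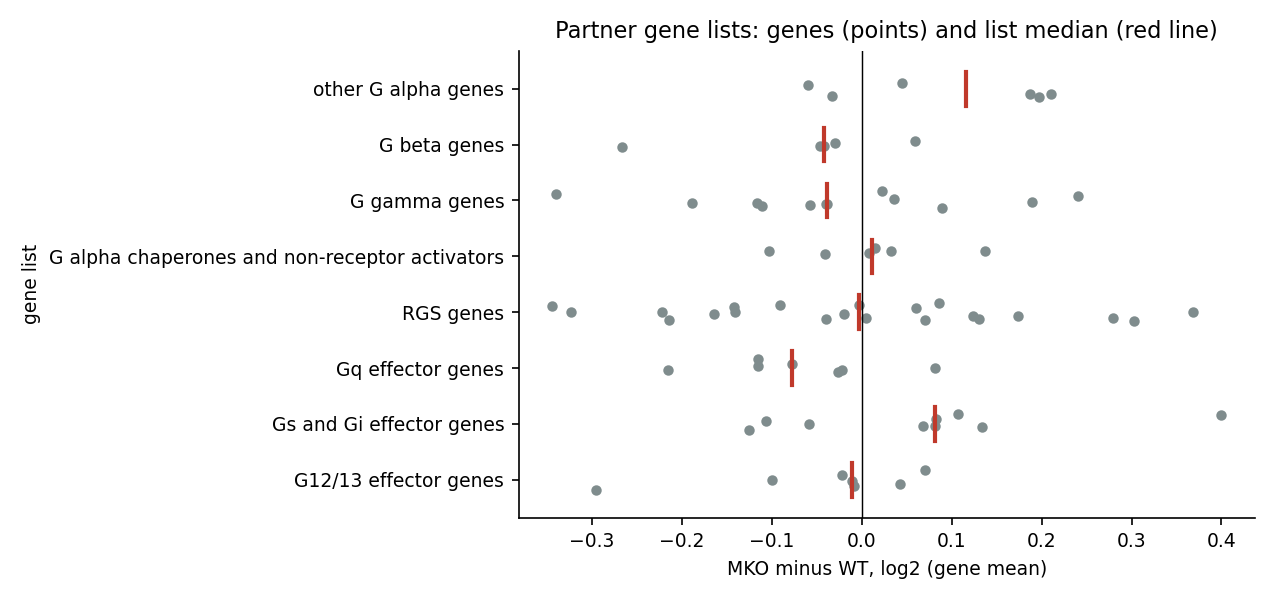
MKO minus WT difference of the gene mean on the log2 scale (horizontal axis) for the genes of 8 lists of G protein partners (vertical axis). Grey points are genes, and red lines are list medians, which lie between −0.08 and 0.12.

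The named genes whose mean was most like that of Gna13 over the 6 arrays were Zdhhc21, a palmitoyl transferase gene (Pearson r = 0.984), Emg1, a ribosome biogenesis gene (0.975), and Cnpy4 (0.967). Compared were 10403 genes above the median level with at least 4 probe sets. That count includes predicted and clone-named genes, microRNA genes and olfactory and vomeronasal receptor genes, which were passed over when the 3 were picked. These values describe 6 arrays that share their normalization, and the Gna13 mean on which they rest did not separate the groups.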

How the data were processed

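Total RNA from 6 soleus muscles was measured on Affymetrix Mouse Gene 2.0 ST arrays. Per the submitters' processing notes and the series' design text, the authors deposited log2 values made by RMA (background subtraction, normalization between arrays and summary per probe set) in Affymetrix Expression Console. The sources used here give no genome build and no exon positions, and no coordinates are printed. The design text names an export at gene level, but the table has 269751 rows, with a median of 8 per gene symbol, and was treated as probe sets. The platform annotation gave 1 symbol for 233753 rows, several for 5106 and none for 30892. A gene's value was the mean of its probe sets.

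The MKO minus WT contrast was estimated by limma 3.58.1 under R 4.3.3 (variance trend, two-sided) over 23152 genes and over all rows, with Benjamini-Hochberg adjustment and a threshold of 0.05. Unequal differences within a gene were tested with diffSplice, which pools the spread over a gene's rows. Weights by level (vooma) were added as an alternative after seeing the data. Tables and figures were made with Python 3.11.15. With 3 against 3 arrays, the smallest two-sided exact permutation p is 0.1, and precision is limited by the number of arrays. The LPE test named by the authors was re-implemented as an alternative, since its package was not installed. Its differences are between the medians of the arrays of each group, whereas the other differences are between means. The members, the partner lists and the marker lists were chosen with earlier results of these data known. Every member was named, with all Gna13 probe sets, those of other members at an unadjusted p under 0.05 or with the highest or lowest difference, and up to 3 genes per list with the smallest p. No protein sequence table was used here.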

Additional observations from a re-analysis of the deposited data

How the results depend on the processing

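No member passed in the fit of genes or of single rows under any alternative run, the re-implemented LPE test included, which called 25 genes and 601 rows in all. The replicate block changed no call of a gene or of the Gna13 tests (adjusted p = 0.034 for unequal differences in Gna13), but it ended the call of Gnai2 17530963 against the rest of its gene (adjusted p = 0.12). Same-numbered arrays deviated from their group means with correlations of −0.0881, 0.0907 and −0.236, and differently numbered arrays with −0.226 to 0.296. With 3 arrays per group, these values cannot settle whether the numbers pair the mice. The adjusted p for unequal differences in Gna13 ranged from 0.00564 to 0.0951 with 1 array left out, with 0 to 2 members called. Under the other alternatives for this test it lay below 0.05. diffSplice takes no variance trend, so that alternative and LPE were not run for it. The number of genes it called in the whole table depended on the setting, with 29 as reported, 44 with array weights, 12 with the replicate block, 10 with weights by level, 4 without shared rows, 1 above the median level and 10 to 144 with 1 array left out.

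The gene difference of Gna13 changed sign to −0.0412 with bright probe sets only and ranged from −0.0571 to 0.138 with 1 array left out. It was 0.375 without 17257825. Small differences that changed sign were those of Gna12 (0.0101 with array weights), Gna11 (0.0377 with quantile normalization, 0.0174 with median centring, 0.0596 without shared rows) and Gnai1 (0.016 with array weights, 0.0131 with quantile normalization, 0.0147 with median centring, 0.00895 by LPE, 0.107 without shared rows, 0.0227 with bright probe sets only). Those of probe sets 17257826 (−0.0188 by LPE, as a difference of group medians) and 17454622 (0.0544 with array weights, 0.00907 with quantile normalization, 0.0261 with median centring) did so too. With 1 array left out, Gna11 ranged from −0.0416 to 0.0307, Gnaq from −0.245 to 0.0101, Gnai1 from −0.136 to 0.1004, 17357979 from −1.72 to 0.0219, 17409222 from −0.205 to 0.467, 17454622 from −0.222 to 0.182 and 17530962 from −0.0176 to 0.0877. The cause was not tested. The weights by level, the omission of shared rows and the 2 trimmed means were chosen after seeing the data.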

Other observations

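Outside the 110 probe sets, 3 rows carried both Gnas and Nespas, an antisense transcript of the Gnas locus, and entered no comparison. Row 17395136 stood at 3.20, 2.75 and 2.43 in MKO, against 2.02, 2.39 and 2.75 in WT. Row 17395137 stood at 3.85, 5.09 and 5.42 in MKO, against 4.79, 4.80 and 4.92 in WT. Row 17395138 stood at 4.78, 3.40 and 4.44 in MKO, against 3.83, 3.75 and 4.34 in WT. The groups overlapped in all 3.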
